A study of Schizosaccharomyces pombe with 9 samples.

Results

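The messenger RNAs of the small ribosomal subunit were examined in PAR-CLIP libraries made from fission yeast (Schizosaccharomyces pombe) cells in which the histone deacetylase Clr3 carried a tag. The members were all nuclear protein-coding genes whose symbol starts with rps followed by a digit, which gave 55 of 5113 protein-coding genes. Called positions counted when they lay inside such a gene on its own strand. They numbered 137 of 6560 nuclear positions in the first crosslinked library (crosslinked replicate 1), 87 of 4742 in the second (crosslinked replicate 2) and 7 of 127 in the library made without crosslinking. All 3 libraries came from strains of the same genotype, with the alleles ura4-delta18, leu1-32 and ade6-M216, a ura4+ marker at imr1R(NcoI), the mating type h+ and the fusion clr3-3HA-TAP::kan MX at its own gene. Per the labels' protocols they were grown with uracil at 10 mg/l and with 4-thiouracil, 100 µM at first and a further 900 µM for 4 h. Growth was at 30 °C with 4% glucose, and the crosslinked cells received 12 J/cm2 at 365 nm. That the control was not crosslinked rests on its title and the series' design, since its protocol text also mentions irradiation. An untagged strain was not analysed here, so RNA bound by Clr3 and RNA bound by other recovered proteins cannot be told apart. The annotation names every member as a small subunit protein, and the mitochondrial gene rps3, whose coordinates could not be matched, was not analysed here.

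Proteins of the small subunit fold and brace the ribosomal RNA that reads the codons of a messenger RNA. Their messenger RNAs are among the most abundant and most translated of a growing yeast cell, and most of the proteins are encoded by more than 1 gene. In PAR-CLIP the uridine analogue crosslinks to a bound protein under UV light and is then read as C, so a T-to-C conversion can mark a contact nucleotide. The deposited tables give for each called position the number of reads with a conversion, the number of reads covering it, and an occupancy. The occupancy is the conversions divided by a whole number, called the reference depth below and read as the depth of a separate library that the sources used here do not name.

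Every nuclear position in the 3 tables was a T in the reference genome on the given strand. Nuclear conversions numbered 18539 and 10672 in the crosslinked replicates and 885 in the no-crosslink library. The tables hold calls alone, which leaves the sequencing depth unknown, and a gene without a call was not shown to lack contact. Calls of 1 conversion in 3 reads made up 3399 and 3089 nuclear positions of the crosslinked libraries and 0 of the no-crosslink library. The Wilson 95% intervals given with shares cover counting error only. The SD over the 2 crosslinked libraries may be technical, since the labels do not say that they came from separate cultures.

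Most small subunit messenger RNAs carried conversions after crosslinking. In crosslinked replicate 1, 47 of the 55 genes had a called position, against 52.4% of all protein-coding genes, and in crosslinked replicate 2 there were 42, against 43.6%. Both crosslinked libraries had a position in 36 of the 55 genes (65.5%), against 29.9% of all protein-coding genes. With at least 2 conversions at a position the count of genes remained 36, while the background fell to 8.06%. At least 2 positions in each crosslinked library were called in 15 of 55 genes, against 9.64% of all protein-coding genes. With the authors' p of a call at most 0.001, however, it was 8 of 55, against 3.83% of all protein-coding genes, the 8 being rps1201, rps1202, rps13, rps1601, rps20, rps2501, rps2602 and rps3. Of the others, 11 genes had positions in crosslinked replicate 1 and not in replicate 2, against 22.5% of all protein-coding genes, and 6 the reverse, against 13.7%. RNA amount and contact cannot be told apart in such counts, because no RNA-seq values were used, and no test of these genes against others was made.

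Together the small subunit genes held 2.39% of the nuclear conversions of crosslinked replicate 1 (2.18 to 2.63 by Wilson 95% interval). The share was 1.93% for crosslinked replicate 2 (1.69 to 2.21) and 1.69% for the control (1.03 to 2.78). The mean of the crosslinked libraries was 2.16% ± 0.329 (SD, n = 2), and the interval of the no-crosslink library included it. These crosslinked shares count calls of 1 conversion in 3 reads, which the control lacks. With at least 2 conversions, as in every control call, they were 2.89% and 2.65%, the first above that interval. With 2 libraries against 1, no exact permutation p can fall below 1 in 3, and no test was made. By number of positions, the genes made up 2.09% (1.77 to 2.46) and 1.83% (1.49 to 2.26) of nuclear calls after crosslinking and 5.51% (2.7 to 10.9) without it. These calls are not alike, because 3399 and 3089 of those after crosslinking had 1 conversion in 3 reads, against 0 without it. Shares by number of positions can therefore not be compared between the crosslinked libraries and the control. The conversions were spread over many genes: the 12 genes with the highest mean share held 47.5% of the small subunit conversions in crosslinked replicate 1 and 41.3% in crosslinked replicate 2.

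**Figure D1:**
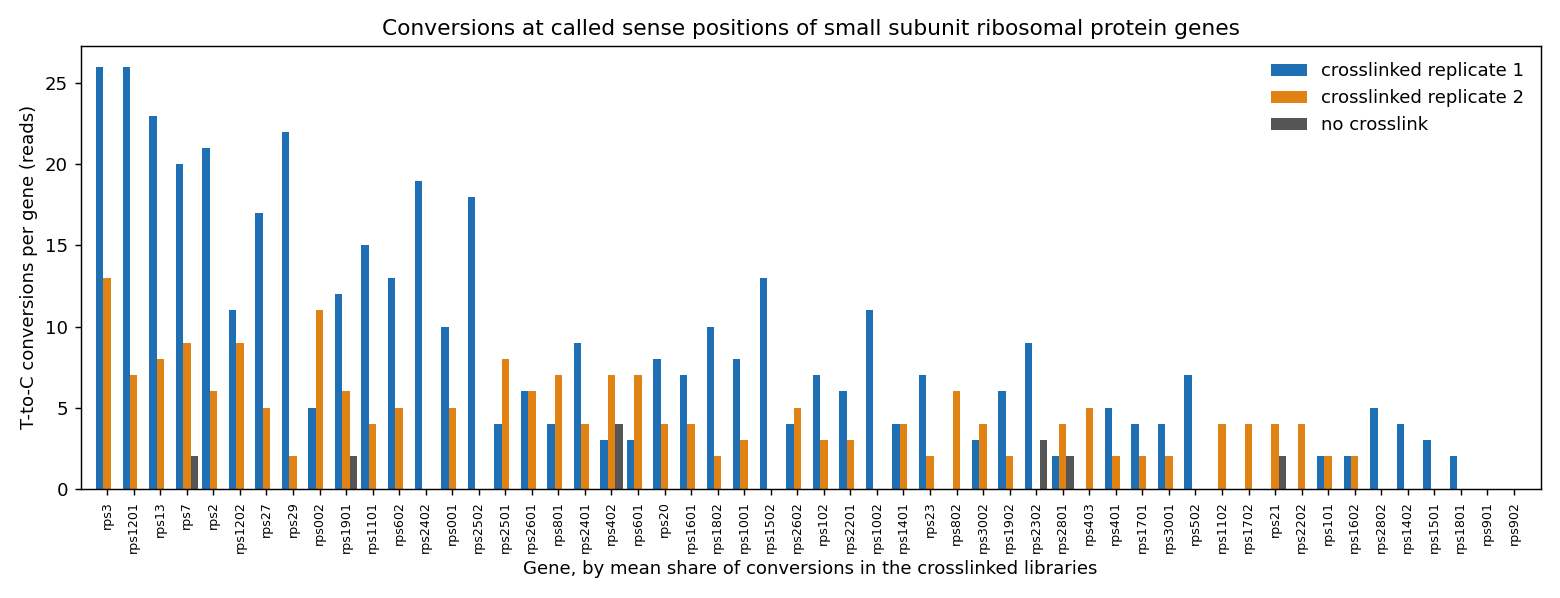
Conversions (reads, vertical axis) at called sense positions of the small subunit genes (horizontal axis, 1 gene not shown, ordered by mean share over the crosslinked libraries), with 1 bar for each library. The first gene, rps3, reaches 26 and 13 conversions, and the last 2, rps901 and rps902, have none in any library.

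At the mRNA entry side of the subunit, rps3 had the highest mean share of all members. It encodes uS3, which lines the channel through which messenger RNA enters (chromosome II, 4238212 to 4239339, minus strand). It had 26 conversions in 1833 reads at 8 positions in crosslinked replicate 1, 13 in 508 reads at 4 positions in crosslinked replicate 2, and no position without crosslinking. Its share was 0.131% ± 0.013 of nuclear conversions (SD, n = 2), the replicates being close. rps2, which encodes uS5 of the same channel (III, 2095135 to 2096036, minus), had 21 conversions in 1300 reads and 6 in 378 reads, at 6 and 2 positions. A position, in its 5' UTR (III 2095996, 3 of 165 reads in crosslinked replicate 2), also lay inside the non-coding RNA gene SPNCRNA.1261. Another protein of the channel, uS4, is encoded by rps901 (I, 475354 to 476122) and rps902 (II, 2059771 to 2060438). The genes of these 3 proteins held 0.216% ± 0.0534 of nuclear conversions together (SD, n = 2). The uS4 genes were the 2 members without a called position in any of the 3 libraries, although they have 237 and 205 T in their exons, near the 264 of rps2.

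On the platform and the mRNA exit side, 8 of 13 genes had positions in both crosslinked libraries. The uS2 genes, rps001 and rps002, had 10 and 5 conversions in crosslinked replicate 1 and 5 and 11 in crosslinked replicate 2, so the copy with more differed between the libraries. In the eS26 pair, whose protein lies where messenger RNA leaves, rps2601 had 6 and 6 conversions in 144 and 94 reads and rps2602 had 4 and 5 in 86 and 62 reads. Among genes of the platform protein eS1, rps102 had 7 and 3 conversions and rps101 had 2 and 2. rps1401, which encodes uS11 beside the exit, had 4 and 4 conversions in 86 and 51 reads, while its copy rps1402 had 4 in crosslinked replicate 1 alone. For eS28, rps2801 had 2 and 4 conversions, with 2 more in the no-crosslink library. The other eS28 gene, rps2802, had 5 in crosslinked replicate 1 alone, and rps21, a single gene, had 4 in crosslinked replicate 2, with 2 more in the control. The whole set held 0.395% ± 0.0245 of nuclear conversions (SD, n = 2).

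In the head and its beak, 12 of 18 genes had positions in both crosslinked libraries, and the set's share of nuclear conversions was 0.901% and 0.515% in the replicates (0.708% ± 0.273, SD, n = 2). The beak protein eS12 stood out by its level, with rps1201 (III, 553174 to 553840, plus) at 26 conversions in 1890 reads and 7 in 198 reads, and rps1202 (II, 498389 to 499044, minus) at 11 in 151 reads and 9 in 113 reads. rps29, which encodes uS14 (II, 516428 to 516879, plus), had 22 conversions in 1674 reads at 6 positions in crosslinked replicate 1 but 2 in 48 reads at 1 position in crosslinked replicate 2. Its share thus varied by as much as its mean, 0.0687% ± 0.0707 (SD, n = 2). rps1901 of eS19, a protein needed for maturation of the small subunit RNA in budding yeast and human cells, had 12 conversions in 816 reads, 6 in 129 reads and 2 in 38 reads without crosslinking. Its copy rps1902 had 6 and 2. rps20, the gene of uS10, had 8 and 4 conversions, rps1601 of uS9 had 7 and 4, and its copy rps1602 had 2 and 2. In rps1802 of uS13 there were 10 and 2, in rps1001 of eS10 there were 8 and 3, and in rps1701 of eS17 there were 4 and 2. Their copies rps1801 and rps1702 had 2 in crosslinked replicate 1 alone and 4 in crosslinked replicate 2 alone. rps2501 of eS25 had 4 and 8, whereas its copy rps2502 had 18 conversions in 1512 reads in crosslinked replicate 1 and none in crosslinked replicate 2. rps1501 and rps1502, the uS19 genes, had 3 and 13 in crosslinked replicate 1 alone. The position with most conversions of any member was in rps1002 of eS10 (II 1448184, coding), with 8 of 203 reads in crosslinked replicate 1, and rps1002 was not called in crosslinked replicate 2.

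In the body and shoulder, 14 of 20 genes had positions in both crosslinked libraries, and the set held 0.844% ± 0.0272 of nuclear conversions (SD, n = 2). From the entry side on, the sets hold 4, 13, 18 and 20 genes, and their shares rise in that order. Their called positions per 1000 T were 9.07 ± 5.13, 7.32 ± 2.35, 9.78 ± 4.61 and 9.83 ± 1.26 (SD, n = 2). These spreads overlap, and no difference between the sets was tested. Of all 55 genes, 65.5% had positions in both libraries, against 29.9% of all protein-coding genes. rps13, which encodes uS15 (I, 2745872 to 2746692, minus), had 23 conversions in 1744 reads at 6 positions and 8 in 339 reads at 3 positions. rps7 of eS7 (I, 2241748 to 2242530, minus) had 20 in 1351 reads, 9 in 500 reads and 2 in 49 reads without crosslinking. rps27 of the zinc-binding protein eS27 (II, 517321 to 517984, plus) had 17 in 1353 reads and 5 in 149 reads. In these 3 single-copy genes crosslinked replicate 1 was the higher library by conversions and by reads. For eS6, the classical target of S6 kinases, rps602 had 13 and 5 conversions and rps601 had 3 and 7. rps1101 of uS17 had 15 and 4, and its copy rps1102 had none and 4. The eS24 gene rps2401 had 9 and 4, and its copy rps2402 had 19 and none. Of the 3 eS4 genes, rps401 had 5 and 2, rps402 had 3 and 7 with 4 more without crosslinking, and rps403 had none and 5. rps801 of eS8 had 4 and 7 and rps802 had none and 6. The remaining genes with positions in both were rps2201 of uS8 with 6 and 3 conversions (its copy rps2202 had none and 4), rps23 of the decoding-centre protein uS12 with 7 and 2 (its copy rps2302 had 9 and none, and 3 in the control), and the eS30 genes rps3001 with 4 and 2 and rps3002 with 3 and 4. Across all 55 genes, conversions per gene in the crosslinked libraries correlated at 0.125 by Spearman's rho and 0.26 by Pearson's r. Over the 36 genes with positions in both they were 0.299 and 0.412. These describe genes that share libraries and are not independent replicates.

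The crosslinked libraries called the same nucleotide in 4 small subunit genes, against 0.939% of all protein-coding genes with such a position. The 4 positions were 2.92% of the positions of crosslinked replicate 1 and 4.6% of those of crosslinked replicate 2. Over all protein-coding genes the 64 shared positions were 1.12% and 1.52%, and over all nuclear positions the 276 shared ones were 4.21% and 5.82%. These shares cover unlike calls. Those of 1 conversion in 3 reads were 5.11% and 5.75% of small subunit positions, against 54.8% and 71.5% in other protein-coding genes. Within 2 nt, 6 of the 87 positions of crosslinked replicate 2 had a neighbour in crosslinked replicate 1, and within 10 nt there were 10. The sequences around the 4 shared nucleotides are shown because they are the nucleotides called in both libraries. Conversion by crosslinking and background conversion cannot be told apart at them. Each is 29 nt of the coding strand from the RefSeq genome ASM294v3, with the converted T in capitals.
rps13: tgctgacagagtgaTaggtcttgctcccg
rps1401: acccgtagaaagggTggtcgtcgtggtcg
rps1202: cagtcttttgttcaTacacaataaaaatt
rps2501: aaatggtctaagggTaaagtgaaggacaa
The windows are I:2746228-2746256 (minus strand), I:3436668-3436696 (plus), II:498455-498483 (minus) and II:1274315-1274343 (plus), and each occurs once in the nuclear genome.

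The strongest of these by share of reads was in the 3' UTR of rps1202 (II 498469), with 4 conversions in 32 reads (12.5%, Wilson 95% interval 4.97 to 28.1) and 3 in 16 reads (18.8%, 6.59 to 43.0). In the coding sequence of rps1401 (I 3436682) there were 2 of 45 reads (4.44%, 1.23 to 14.8) and 2 of 16 reads (12.5%, 3.5 to 36.0). In the coding sequence of rps2501 (II 1274329), 29 nt from the annotated 5' end, there were 4 of 130 reads (3.08%, 1.2 to 7.64) and 2 of 51 reads (3.92%, 1.08 to 13.2). In an intron of rps13 (I 2746242) there were 3 of 145 reads (2.07%, 0.706 to 5.91) and 2 of 66 (3.03%, 0.835 to 10.4). The intervals of the replicates overlap at all 4 positions. By the two-sided Fisher exact test on reads, adjusted over all 276 nuclear positions called in both libraries, none of the 4 differed (adjusted exact p between 0.988 and 1.0, and none with an unadjusted p under 0.05), against 0.0% of all positions tested. That test compares these libraries and not conditions, and with so few conversions it does not show that the shares were equal.

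Without crosslinking, 7 positions in 6 genes were called: rps1901, rps21, rps2302, rps2801, rps402 and rps7. These are 10.9% of the 55 genes, against 1.21% of all protein-coding genes. They are shown because they are the small subunit nucleotides that converted in the library labelled as lacking crosslinks. Here too 29 nt from RefSeq are printed with the converted T in capitals, and 2 positions lie in rps402.
rps7: aaaatttcacgtttTgcgttcgtatcggt
rps2302: ctgccattcgtaaaTgtgtgcgtgttcaa
rps1901: cgttaaccgtggcaTgcgcccttctcatc
rps2801: atcattcgtaacgtTaagggacctgttcg
rps21: gaaggtcgccaaatTcctggcgagaagac
rps402: catgatggacgtacTatccgttatcctga
rps402: catcaagggccgctTtactgttcatcgta
In this order the windows are I:2241902-2241930 (minus strand), II:2897290-2897318 (plus), II:3818699-3818727 (plus), I:4306240-4306268 (plus), II:2084044-2084072 (plus), II:1651359-1651387 (minus) and II:1651471-1651499 (minus).

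The first 3 of these were also called in crosslinked replicate 1. In rps2302, a uS12 gene (II 2897304), 3 of 32 reads converted without crosslinking (9.38%, 3.24 to 24.2) and 4 of 210 in crosslinked replicate 1 (1.9%, 0.743 to 4.79). In rps1901 (II 3818713) there were 2 of 38 reads (5.26%, 1.46 to 17.3) and 5 of 432 (1.16%, 0.495 to 2.68), and in the 3' UTR of rps7 (I 2241916) 2 of 49 reads (4.08%, 1.13 to 13.7) and 3 of 211 (1.42%, 0.485 to 4.1). The share was higher without crosslinking at all 3, but the intervals overlap, and none passed the Fisher exact test adjusted over the 41 positions called in both libraries (adjusted exact p = 0.139, 0.203 and 0.349), against 22.0% of those positions. No call of the no-crosslink library had fewer than 2 conversions. With 32 to 49 reads its shares could therefore not be as low as those of crosslinked replicate 1, and the direction is not a result about crosslinking. Only positions called in both libraries could be tested. The remaining 4 positions were not called in a crosslinked library. The one in rps21 lay 1 nt from a position called in crosslinked replicate 2, with 2 of 41 reads and 4 of 89 reads. All 6 coding positions of the no-crosslink library fell in the middle of 3 equal segments of the coding sequence, which holds 35.3% of the coding T.

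Small subunit positions differed from those of other genes in the number of reads behind them. The median position had 186 reads in crosslinked replicate 1 and 49 in crosslinked replicate 2, against 3 in both for the other protein-coding genes. Calls of 1 conversion in 3 reads were 5.11% and 5.75% of small subunit positions, against 54.8% and 71.5% elsewhere. Among positions with at least 2 conversions the medians were 189.5 and 53.5 reads, against 46 and 41 elsewhere, so the excess of reads was larger in crosslinked replicate 1. As a share of reads, the median conversion was 1.82% for crosslinked replicate 1, 4.44% for crosslinked replicate 2 and 6.9% for the control. These medians run opposite to the reads, of which the no-crosslink positions had a median of 32.

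From 2 to 4 conversions, the most reads of a call rose with its conversions in each library. In crosslinked replicate 1, small subunit positions with 2 conversions had at most 66 reads, those with 3 had 23 to 217 and those with 4 had 32 to 418. The most reads of any nuclear call with 2, 3 and 4 conversions were 67, 221 and 438. In crosslinked replicate 2 these limits were 68, 225 and 450, and small subunit positions reached 68, 219 and 421. In the no-crosslink library the limits were 52, 166 and 344. At 5, 6 and 7 conversions the limits rose further in the crosslinked libraries, to 551, 666 and 775 reads in replicate 1 and 555, 631 and 690 in replicate 2. In the no-crosslink library the order did not hold, with at most 314, 261 and 179 reads, over only 3, 2 and 3 calls. The only small subunit position with 6 conversions in crosslinked replicate 2 had 251 reads. Of the small subunit positions, 110 of 137 (80.3%) and 77 of 87 (88.5%) held the lowest number of conversions that any nuclear call with as many or more reads had. Of all nuclear positions, 91.0% and 92.5% did. A call of 1 conversion always holds the lowest number, and such calls were 3399 and 3089 nuclear positions but 7 and 5 small subunit positions. The 2 sets of shares thus cover unlike calls and do not place small subunit calls further from the lowest number. At a given number of conversions the percentage falls as reads rise, so the medians of libraries with different read numbers cannot be read as contact strengths.

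**Figure D2:**
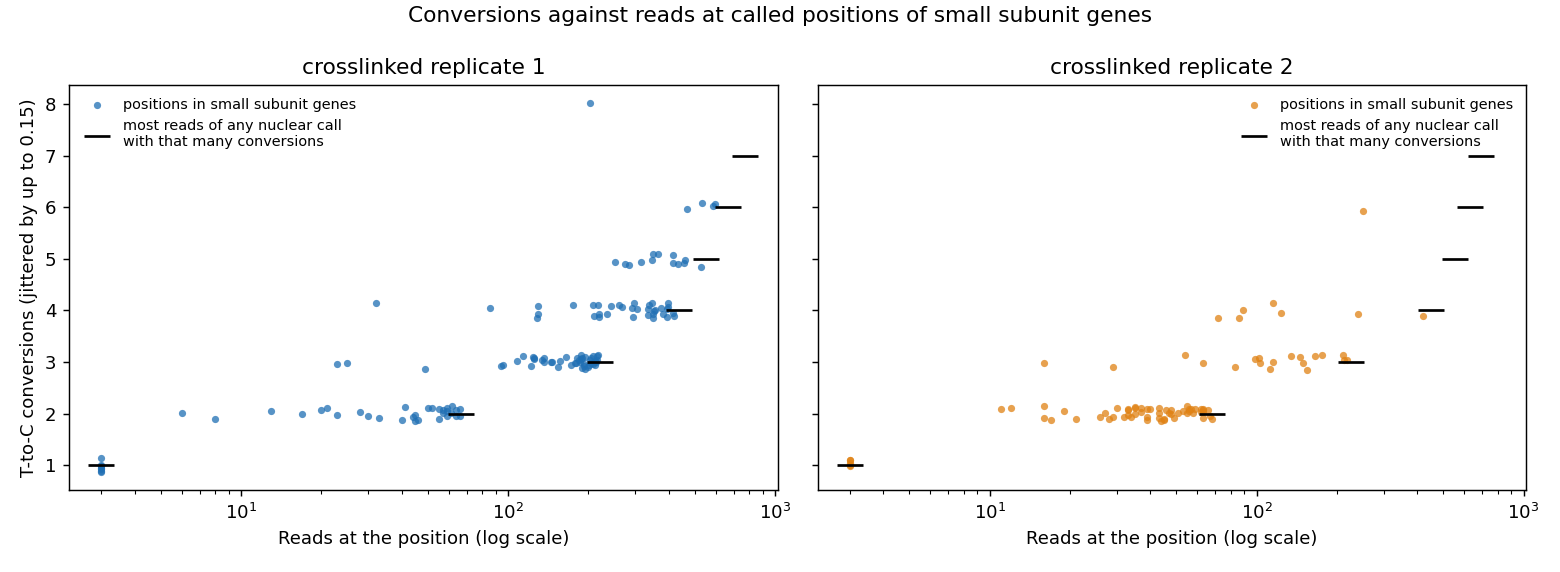
Conversions (vertical axis, jittered for display) against reads (horizontal axis, log scale) at each called position of the small subunit genes in the crosslinked libraries, with black dashes at the most reads of any nuclear call having 1 to 7 conversions. The dashes include the small subunit calls, so no position can lie to the right of the dash for its conversions. At 2 conversions in crosslinked replicate 1 the highest small subunit value is 66 reads.

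The reference depth was high and depended on the distance from the start of the messenger RNA. Over small subunit positions its median was 21251 and 18494 in the crosslinked replicates and 32911 in the control. For the other protein-coding genes it was 160 and 168 in the crosslinked libraries, or 681 and 1244 with at least 2 conversions. The median occupancy was accordingly low, 1.57e-04 and 1.42e-04, against 0.008 and 0.00671 elsewhere. The highest reference depth was 98535 at a small subunit position and 99994 in other protein-coding genes. Whether the reference depth is limited from above, or counts 1 strand, is not known, and this bears on its medians and on the occupancies.

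Within 100 nt of the annotated 5' end, a distance chosen after the values were seen, the reference depth had a median of 406.5 over 40 exonic positions of the crosslinked libraries and a range of 6 to 10164. Between 100 and 200 nt the median was 27110.5 over 42 positions, and beyond 200 nt it was 25394 over 131. All 28 exonic positions with a reference depth under 1000 lay in the first 100 nt, in 22 genes, whereas the lowest of the 173 exonic positions further in was 1032. The PAR-CLIP reads did not fall in the same way. Their median was 137 in the first 100 nt, 215 from 100 to 200 nt and 178.5 beyond in crosslinked replicate 1, and 55, 45 and 49 in crosslinked replicate 2. In rps29, for example, a coding position 30 nt from the 5' end (II 516458) had 398 reads over a reference depth of 51, and one 166 nt from the 5' end (II 516645) had 215 reads over 88186. In rps002 the position 27 nt from the 5' end (I 4037585) had 178 reads over a reference depth of 14, and in rps1101 the one at 25 nt (I 2992671) had 190 reads over 19.

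Occupancy, which has the reference depth as its denominator, ran inversely to it, with a median of 0.0077 in the first 100 nt, 1.12e-04 from 100 to 200 nt and 1.18e-04 beyond. At 9 positions, all in the first 100 nt, the PAR-CLIP reads exceeded the reference depth. In the 24 genes with positions of at least 2 conversions in both the first 100 nt and beyond 200 nt, the reference depth was higher further in for 24 of 24 genes, by a median of 43.3-fold and a range of 4.02 to 4000-fold. Reads were higher further in for 13 of these 24 genes, with a median ratio of 1.15. Other protein-coding genes went the same way, with a higher reference depth further in for 119 of 123 genes and a median of 16.1-fold. The fall of the reference depth near the 5' end was thus common to other genes, and no test of the small subunit genes against them was made. Called positions per 1000 T were 19.9, 15.8 and 10.2 from the first to the last of these intervals in crosslinked replicate 1, and 11.9, 10.7 and 6.53 in crosslinked replicate 2. Other protein-coding genes had 1.94, 1.96 and 1.69 in crosslinked replicate 1, and 1.49, 1.39 and 1.24 in crosslinked replicate 2, a smaller change along the mRNA.

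**Figure D3:**
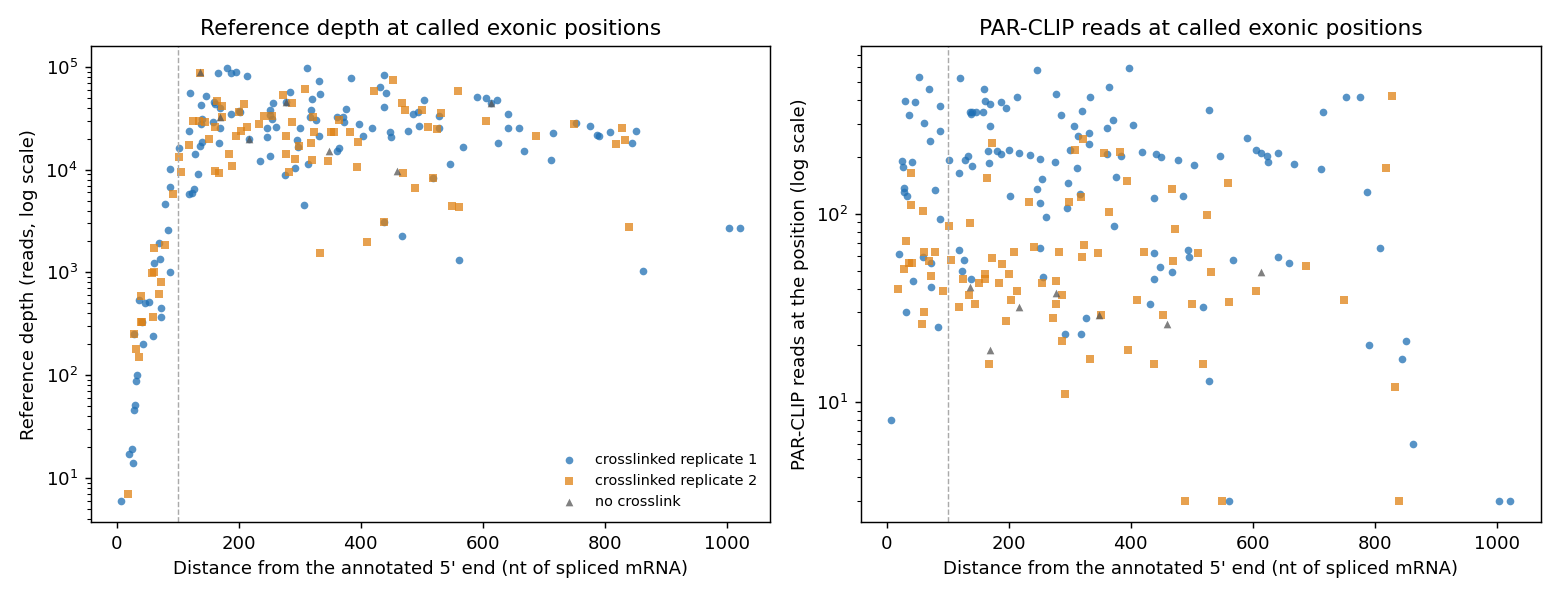
Reference depth (left) and PAR-CLIP reads (right), both on log scales, at each called exonic position of the small subunit genes against the distance in nt of spliced mRNA from the annotated 5' end, with 1 colour and marker for each library and a dashed line at 100 nt. Reference depth climbs from 6 to at most 10164 within the first 100 nt, below the later medians of 27110.5 and 25394, while the reads show no such climb.

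Most small subunit positions lay in coding sequence, at 100 of 137 (73.0%, 65.0 to 79.7 by Wilson 95% interval) for crosslinked replicate 1, 66 of 87 (75.9%, 65.9 to 83.6) for crosslinked replicate 2 and 6 of 7 without crosslinking. Coding sequence holds 61.7% of the T of these genes. The 3' UTRs, with 23.7% of the T, held 27 (19.7%, 13.9 to 27.2) and 15 (17.2%, 10.7 to 26.5) positions. The short 5' UTRs held 3 and 2, with 1.48% of the T. Per 1000 T this came to 11.0 ± 3.18 positions in coding sequence, 7.24 ± 2.92 in 3' UTRs, 13.8 ± 3.91 in 5' UTRs and 3.41 ± 1.31 in introns (SD, n = 2). Coding sequence was above the 3' UTRs within each replicate, at 13.2 against 9.31 and 8.72 against 5.17. The ranges of the replicates overlap, crosslinked replicate 1 being higher in every part, and the difference was not tested. Other protein-coding genes had 1.77 ± 0.35, 0.753 ± 0.234, 1.24 ± 0.28 and 0.538 ± 0.1 in the same order. Within the coding sequence, the first, middle and last segments of equal length held 36, 29 and 35 of 100 positions and 25, 21 and 20 of 66, near their shares of the T (31.6%, 35.3% and 33.1%). Position 3 of codons, with 49.7% of the coding T, held 52.0% (42.3 to 61.5) and 43.9% (32.6 to 55.9) of positions.

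**Figure D4:**
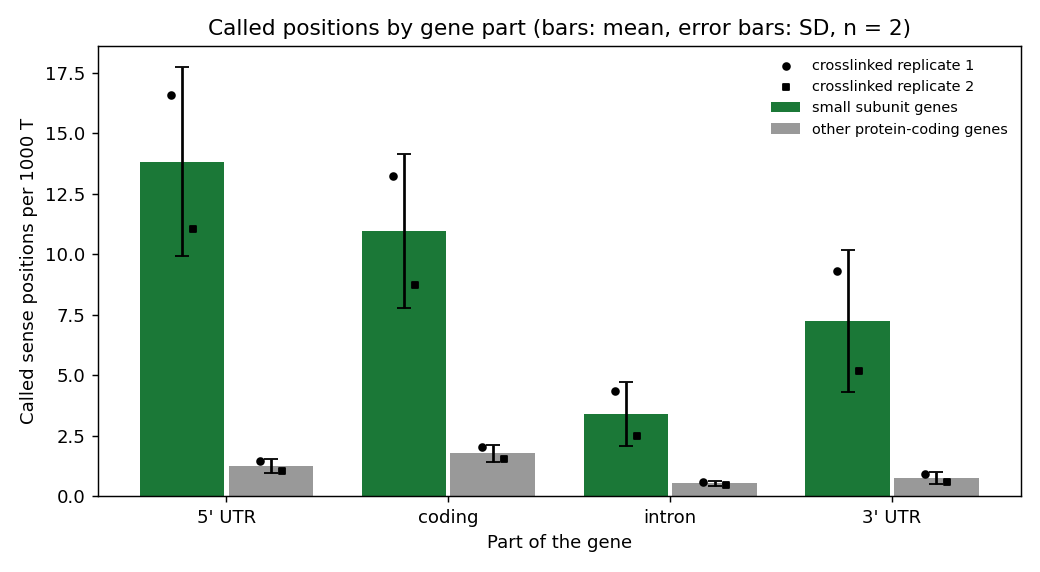
Called sense positions per 1000 T (vertical axis) in each part of the gene, as the mean of the 2 crosslinked libraries with SD, for the 55 small subunit genes and for all other protein-coding genes; black points are the single libraries. Small subunit genes stand at 11.0 in coding sequence and other genes at 1.77, and crosslinked replicate 1 lies above crosslinked replicate 2 in every part.

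Introns carried few positions. Of the 55 genes 31 have an annotated intron, and 6 (rps1202, rps13, rps1701, rps2202, rps27 and rps3) had an intron position in a crosslinked library, 10.9% against 2.43% of all protein-coding genes. Of the 11 intron calls, 6 were of 1 conversion in 3 reads. Both rps13 nucleotides lay in 1 intron of 63 nt (I:2746240-2746302) and within 3 nt of an exon, and their reference depths, 32472 and 18173, were near those of exonic positions. The second, I 2746301, had 2 conversions in 40 reads in crosslinked replicate 1. At both rps13 nucleotides, reads of the intron and reads of spliced RNA cannot be told apart. In rps3 the calls at II 4239169 (4 of 220 reads) in crosslinked replicate 1 and II 4239162 (2 of 46 reads) in crosslinked replicate 2 lay inside snR48, a small RNA gene on the same strand within the intron. There the reference depth was 485 and 275, and host intron and snR48 cannot be told apart. Their 6 conversions are part of the rps3 counts above.

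Of the 31 proteins, 23 are encoded by more than 1 of the 55 genes, which makes 47 genes in 22 pairs and the 3 eS4 genes. The coding sequences of the copies had a median identity of 88.0% over 25 comparisons, the lowest being 74.0% for rps1201 and rps1202, and none reached 95%. Windows of 29 nt that occur elsewhere in the nuclear genome hold 4.19% of the T of the small subunit genes. They held 1 called position, in rps801 (I 4287371), with 4 of 305 reads in crosslinked replicate 1, and its assignment to 1 copy is uncertain. The sources used here do not say how reads with several matches were treated.

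No coincident call was found between copies of the same protein. Of the 134 coding calls in genes with copies, over all 3 libraries, 112 (83.6%) align to a T of another copy, but at none of these was the other copy also called, in any library. Only coding positions were aligned, and with 13.2 and 8.72 called coding positions per 1000 T in the crosslinked replicates, a count of 0 does not show that copies differ in where they are contacted. In 8 of the 23 proteins every copy had positions in both crosslinked libraries. In 18 proteins 1 copy had more conversions than the others in each crosslinked library, and it was the same copy in 6. Leads could be small, as for rps3001 and rps3002 of eS30, with 4 against 3 conversions in crosslinked replicate 1 and 2 against 4 in crosslinked replicate 2. A copy without a call counted as 0, so a changed lead does not show a switch between copies. Single-copy genes had 21.6 and 9.41 positions per 1000 T in the crosslinked libraries, against 9.37 and 6.69 for genes with copies. Their median conversions per gene were 20.5 and 5.5, against 5 and 3. The single-copy genes also had the higher median reference depth, 28110 and 32472 against 19463 and 17651. The ratio of positions per T was larger in crosslinked replicate 1, and the part of reference depth and of mapping in it was not tested.

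**Figure D5:**
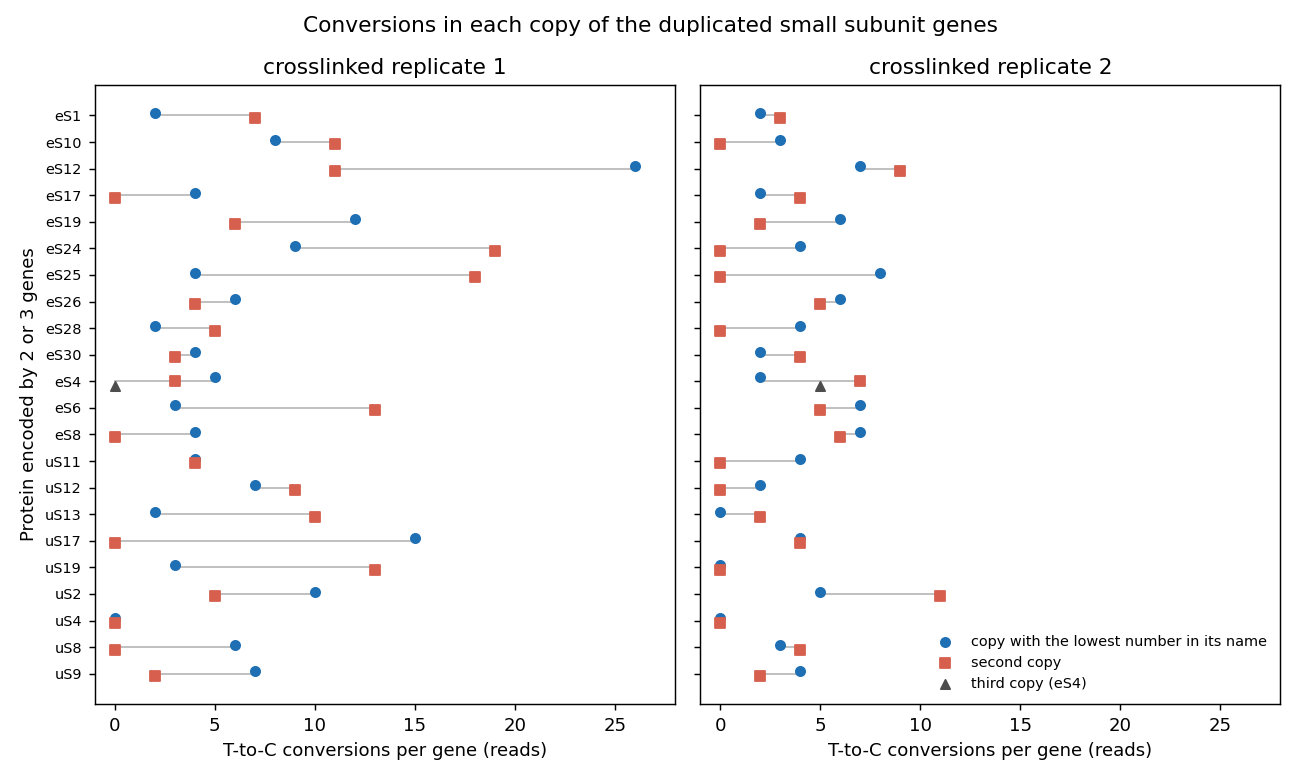
Conversions (reads, horizontal axis) in each copy of the proteins encoded by 2 or 3 small subunit genes (vertical axis, 1 protein not shown), in crosslinked replicate 1 (left) and crosslinked replicate 2 (right), with lines joining copies. The leading copy often changes between the panels, sometimes on a lead of few conversions. For eS25 the gap is wide, and rps2502 has 18 conversions on the left and none on the right.

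The base before the converted T was A at 43.8% (35.8 to 52.2) of small subunit positions in crosslinked replicate 1 and 39.1% (29.5 to 49.6) in crosslinked replicate 2, against 21.3% of all T in these genes. It was C at 8.03% (4.54 to 13.8) and 13.8% (8.07 to 22.6), against 21.8%. The base after it was G at 40.1% (32.3 to 48.5) and 31.0% (22.3 to 41.4), against 24.2%, and RNase T1, used to trim the RNA, cuts after G. Other protein-coding genes had A before the T at 38.9% and 37.9% of positions against 27.4% of their T, and G after it at 31.0% and 30.3% against 20.6%. The letters TGTA, searched on the sense strand within 20 nt on either side, were present at 14.6% (9.65 to 21.5) and 11.5% (6.36 to 19.9) of positions against 15.7% of all T of these genes. The letters GTA, which TGTA contains, were present at 48.9% and 44.8% against 46.4%.

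Among related genes, whose lists were taken by symbol, the large subunit set had positions in both crosslinked libraries in 50 of 86 genes (58.1%), and 48 with at least 2 conversions. The small subunit proteins that have other symbols, the scaffold RACK1 homologue cpc2 and the ubiquitin fusions ubi3 and ubi5, had positions in both in 3 of 3 genes. Translation initiation factors, which load the small subunit onto messenger RNA, had them in 17 of 29 (58.6%), and 12 with at least 2 conversions. Factors that assemble the small subunit in the nucleolus and cytoplasm had them in 8 of 24 (33.3%), and 4 with at least 2 conversions. Of all protein-coding genes, 29.9% had positions in both and 8.06% had them with at least 2 conversions. The assembly factors were near the first share, but with at least 2 conversions they stood at 16.7%. On the opposite strand of the small subunit genes there was 1 call, with 1 conversion, in rps23 in crosslinked replicate 1, and none in the other libraries.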

How the data were processed

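Each of the 3 PAR-CLIP libraries came as 1 list of calls. In it, the authors' deposited counts give the conversions and the reads at each position, a reading that rests on the values, since the headers give single letters. The authors' deposited p-value belongs to each call and stays below 0.005. The authors' deposited occupancy is a ratio, and conversions divided by it gave a whole number (tolerance 1e-06) at every position. Build ASM294v2, Bowtie 1.1.1 and SAMtools are named, per the submitters' processing notes, and the sources used here name no caller. The 6 RNA-seq samples were not analysed here.

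Positions were matched to RefSeq ASM294v3, whose nuclear sequence carried a T at every called nuclear position; mitochondrial positions (99, 82 and 8) and 2 on another contig were left out. Positions that also lay inside another gene on the same strand were kept. Paralogous coding sequences were aligned globally with Biopython 1.88. Fisher exact tests (SciPy 1.17.1) were Benjamini-Hochberg adjusted over all shared nuclear positions with a threshold of 0.05, and were tested on simulated data. Named genes were the 12 with the highest mean share, those with positions in both crosslinked libraries or in the control, and, as a group, the copies of each protein. Members, lists and role groups were chosen with earlier results of these data known. Values of 1 small subunit gene are not reported here, though sums and counts include it.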

Additional observations from a re-analysis of the deposited data

How the results depend on the processing

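Of 51 alternatives, 39 left their result within the spread of the replicates or, for counts, within 1.5 times, and 12 moved it; none had a direction to reverse. With the authors' p at most 0.001, 8 genes had positions in both libraries, the share of conversions was 1.4% and 1 position was shared. With at least 2 conversions, the share of conversions was 2.77%, coding positions 78.7% and median reference depth 21927. With at least 20 reads these were 2.9%, 81.7% and 23347, and 2 positions were shared. Without UTRs the share of conversions was 1.81%, and among sense conversions of protein-coding genes 3.87%. With a single crosslinked library, 42 to 47 genes had a position, the share of conversions was 1.93% to 2.39%, coding positions 73.0% to 75.9%, median conversion 1.82% to 4.44% and median reference depth 18494 to 21251; shared positions could not be computed. No small subunit gene was 95% identical to another, so leaving such genes out changed nothing. No paired analysis was possible because the no-crosslink group has 1 library, and the Fisher exact tests compare the reads of single libraries. Few conversions per position limit every comparison of shares.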
